A study of Mus musculus with 18 samples.

Results

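The endoplasmic reticulum (ER) folds, joins with disulfide bonds and glycosylates the proteins a cell secretes or places in its membranes, and 32 genes of that machinery and of its stress response, the unfolded protein response, were followed in mouse brown preadipocytes treated with FGF6. The list was drawn up from the names and functions of the genes, with earlier results of these data known, and each was matched through its Ensembl identifier. All 32 were found among the 48023 genes of the count table, and all 32 passed the filter on low counts that left 15071 genes for testing. Each is annotated as protein coding on the mouse genome build GRCm38.

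The cells were 1 immortalized line, made from the stromal cells of mouse brown fat, and no genetic change beyond the immortalization was named for any group. Cells received either vehicle (Veh) or FGF6, a secreted fibroblast growth factor that acts through receptor tyrosine kinases, and RNA was taken after 4, 8 or 24 h, with 3 libraries for each of the 6 groups. All libraries thus share 1 line, and nothing states whether those of a group came from separate cultures, so p-values measure the spread between these libraries, which may be technical. Levels are given as CPM, the counts of a gene scaled to a common library size, as the mean ± SD of 3 libraries where an SD is given. FDR is the Benjamini-Hochberg adjusted p of edgeR's quasi-likelihood test over all 15071 genes, and a gene was called higher or lower when its FDR was below 0.05.

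Proteins enter the ER through the Sec61 channel and fold there with the help of HSP70 and HSP90 type chaperones, of lectin chaperones that bind sugar chains, and of disulfide isomerases. Unfolded protein activates the membrane sensors IRE1 (gene Ern1), PERK (Eif2ak3) and ATF6. IRE1 splices the mRNA of the transcription factor Xbp1, ATF6 is cut to free a transcription factor, and PERK slows translation. The factors freed by ATF6 and IRE1 raise chaperone genes and the genes of ER-associated degradation (ERAD), which returns misfolded proteins to the cytosol for destruction. The pathway is best known in secretory cells, and Xbp1 is known to take part in adipocyte differentiation.

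ATF6 and the general factor NF-Y bind the ER stress element, ERSE, which was searched as CCAAT and CCACG with 9 bases of any kind between them, on both strands of RefSeq promoter windows (GRCm38.p6) running from 250 bases before to 50 bases from each start site. Of the 32 genes, 27 had a window. ERSE was present in 9 of these 27 genes (33.3%), against 37 of all 27025 genes with a window (0.137%) and 39 of all 32851 windows (0.119%). The related ERSE-II, searched as ATTGG and CCACG with 1 base of any kind between them, was present in Dnajb11 and Herpud1, 2 of 27 genes (7.41%) against 0.0444% of all genes. The unfolded protein response element of XBP1, TGACGTGG, was found in 0 of these 27 genes and in 0.714% of all genes. Its short parts were common, CCACG being present in 81.5% of the 27 genes and 35.5% of all genes, and CCAAT in 77.8% and 41.1%; both lie inside ERSE and, in reverse for CCAAT, inside ERSE-II. Several of these genes are textbook examples of the element, and a match of letters shows no binding.

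The matches are printed 5′ to 3′ on the strand of the gene, because they are the sequence shared by 11 of the 27 genes. Capitals mark the element, which reads CGTGG to ATTGG where it lies on the other strand.
Hspa5 ERSE (chr2:34772020-34772048, plus strand): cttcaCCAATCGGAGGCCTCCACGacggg
Calr ERSE (chr8:84847070-84847098, minus strand): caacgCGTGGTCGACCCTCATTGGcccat
Canx ERSE (chr11:50325795-50325823, minus strand): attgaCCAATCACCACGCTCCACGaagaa
Pdia6 ERSE (chr12:17266486-17266514, plus strand): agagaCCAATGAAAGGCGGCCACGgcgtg
Dnajb11 ERSE-II (chr16:22857843-22857871, plus strand): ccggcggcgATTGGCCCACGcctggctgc
Dnajc3 ERSE (chr14:118937822-118937850, plus strand): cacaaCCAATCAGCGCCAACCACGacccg
Creld2 ERSE (chr15:88819515-88819543, plus strand): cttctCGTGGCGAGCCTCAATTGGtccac
Herpud1 ERSE-II (chr8:94386368-94386396, plus strand): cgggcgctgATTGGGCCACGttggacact
Syvn1 ERSE (chr19:6046527-6046555, plus strand): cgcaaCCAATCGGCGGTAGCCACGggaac
Derl3 ERSE (chr10:75893237-75893265, plus strand): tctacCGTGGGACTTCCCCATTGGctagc
Hsp90b1 ERSE pair (chr10:86705525-86705664, minus strand): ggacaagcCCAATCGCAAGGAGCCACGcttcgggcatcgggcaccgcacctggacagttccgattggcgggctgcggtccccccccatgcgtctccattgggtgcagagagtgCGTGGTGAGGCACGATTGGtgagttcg
Hsp90b1 was the gene with 2 copies of ERSE, facing opposite ways at bases -212 and -107 from the start site, and both are marked in the longer stretch above. In Herpud1 the ERSE-II match began at base -52, and in Hspa5 the ERSE match began at base -65.

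**Figure D1:**
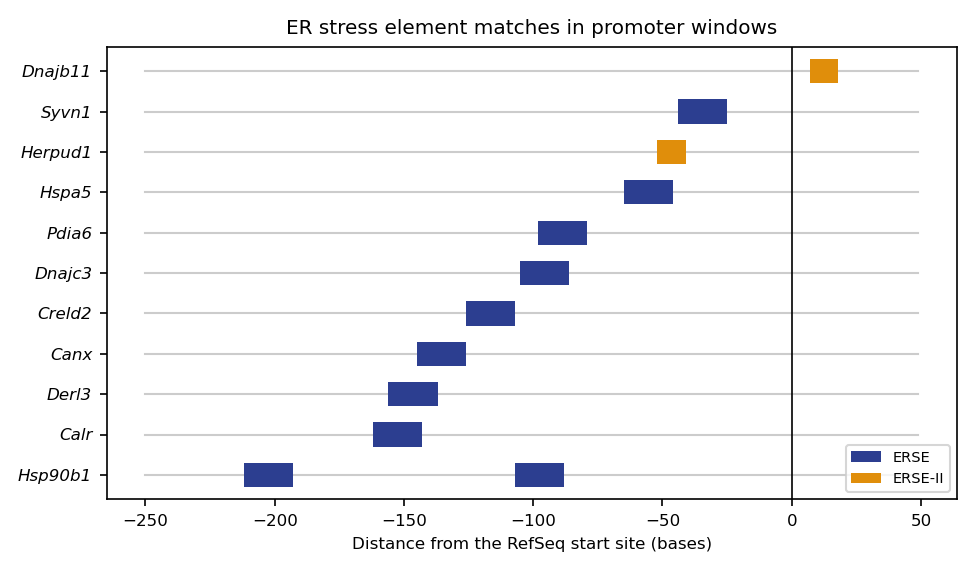
Position of each ERSE (blue) and ERSE-II (orange) match in the promoter window of the 11 genes that held one, with the distance from the RefSeq start site in bases on the horizontal axis and the start site as a vertical line. Matches lie before the start site in 10 genes, and that of Dnajb11 starts at base 7 after it.

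With FGF6, most of the ER genes were lower than with vehicle at 4 and 8 h, and fewer were lower at 24 h. At 4 h, 19 of the 32 were lower, where 34.2% of all genes tested were lower, and 6 were higher, where 28.6% of all genes were. At 8 h, 23 were lower and 4 higher, beside 38.4% and 32.4% of all genes. At 24 h, 14 were lower and 9 higher, beside 37.9% and 35.9% of all genes. The median log2 fold change of the 32 genes was -0.14 at 4 h, -0.29 at 8 h and -0.09 at 24 h, whereas over all genes tested it was -0.05, -0.05 and -0.02. The 24 h median of the 32 genes rested on few libraries, being -0.00826 without vehicle library 3 and -0.0406 without FGF6 library 1.

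Most changes were small. Asking for at least 1.2-fold in addition to the FDR left 7 lower and 2 higher genes at 4 h (26% and 19.5% of all genes), 18 lower and 3 higher at 8 h (31.4% and 24.6%), and 10 lower and 5 higher at 24 h (32.3% and 28.7%). At this threshold the share of ER genes that were lower was below that of all genes at 4 h and near it at 24 h. Only Ern1, Herpud1 and Ero1l differed by 2-fold or more at any of the 3 times. The share of all genes that did so is not given here. The 4 h counts depended on the scaling, since 25 genes were lower and 3 higher when libraries were scaled by their total counts alone, a choice that moved the median log2 fold change of all genes from -0.05 to -0.15 and that of the 32 genes to -0.24. With upper-quartile scaling 24 were lower and 3 higher at that time, and the medians were -0.192 for the 32 genes and -0.105 for all genes. The shares of all genes called under these scalings are not given here, so the counts cannot be set beside them.

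By direction, 12 genes were lower at all 3 times, namely Calr, P4hb, Dnajc3, Sdf2l1, Herpud1, Xbp1, Eif2ak3, Edem1, Edem2, Sel1l, Syvn1 and Derl1. Another 4 were higher at all 3 times, namely Hyou1, Atf6, Ern1 and Ero1l. Hsp90b1, Dnajc10, Manf and Creld2 were lower at 8 h and higher at 24 h. Hspa5, Pdia3, Pdia4, Pdia6 and Dnajb11 were lower at 8 h and not called at 24 h. Derl2 and Selenos were lower from 8 h, Dnajb9 and Sec61a1 were higher at 4 h alone, Canx was lower at 4 h and higher at 24 h, and Derl3 and Sec61b were called at no time. The shares of all genes with the same patterns are not given here, so the counts cannot be set beside them. These patterns depended in part on the scaling, since total-count scaling also called Manf, Creld2, Dnajb11, Derl2, Selenos and Sec61b lower at 4 h and Canx and Dnajb9 lower at 8 h, and it lost the 4 h calls of Ero1l, Dnajb9 and Sec61a1.

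**Figure D2:**
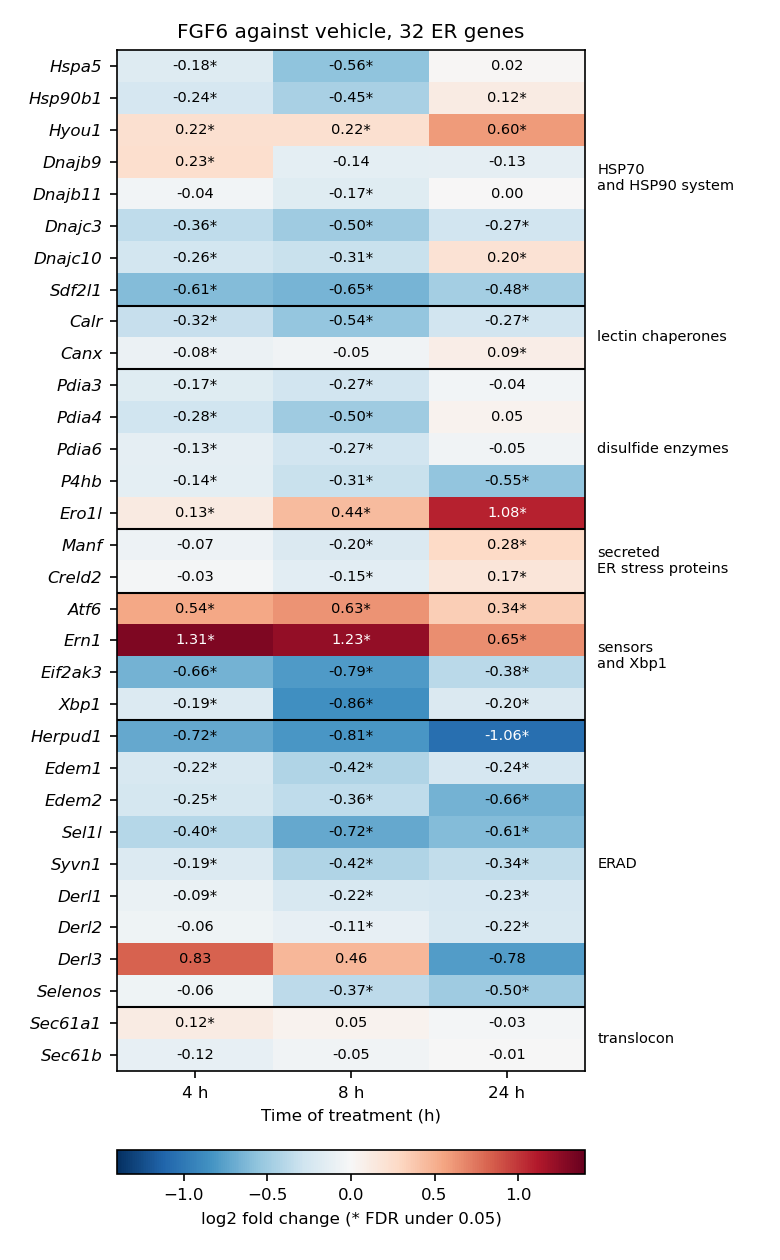
Log2 fold change of FGF6 against vehicle for each of the 32 ER genes (rows, grouped by role) at 4, 8 and 24 h (columns), from red for higher to blue for lower, with an asterisk where the FDR was below 0.05. The 9 ERAD genes hold no red cell with an asterisk, while Ern1 and Atf6 are red at all 3 times and Eif2ak3 and Xbp1 blue.

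**Figure D3:**
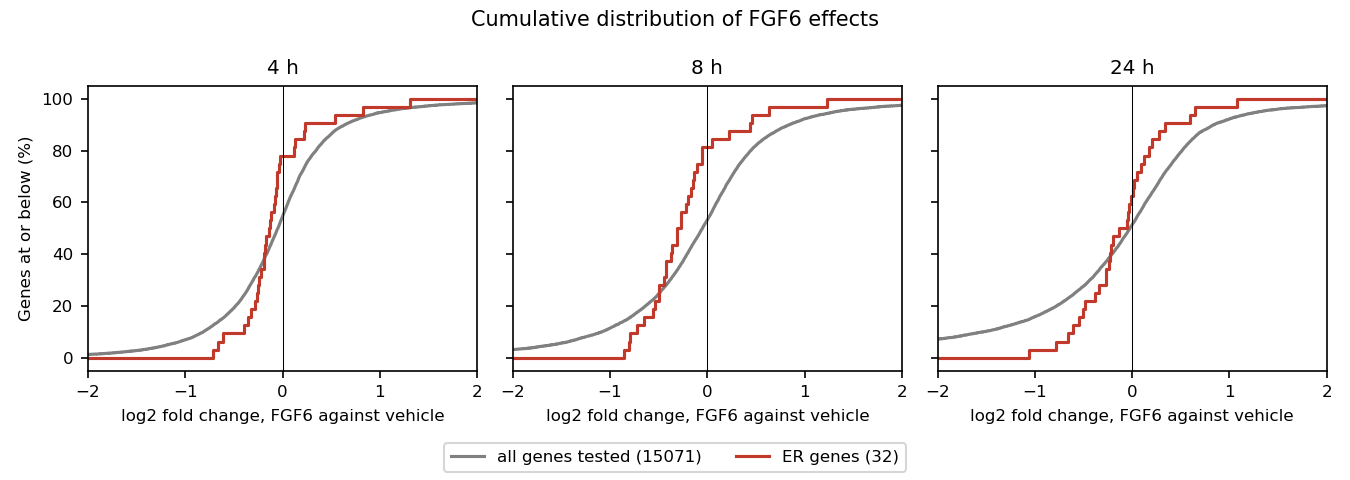
Cumulative distribution of the log2 fold change of FGF6 against vehicle at each time, as the percent of genes at or below the value on the horizontal axis, for the 32 ER genes (red) and all 15071 genes tested (grey). The red line lies left of the grey one around 0 at 4 and 8 h, and its tails are narrower at all 3 times.

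Taken as a sum, the 32 genes held 10370 ± 134 CPM in vehicle and 9332 ± 268 CPM in FGF6 libraries at 4 h. At 8 h the sums were 11770 ± 294 and 9295 ± 364 CPM. At 24 h they were 11450 ± 298 and 10830 ± 22.8 CPM, so the gap was widest at 8 h. Such a sum is not scaled by gene length, and the genes with the highest counts weigh most in it. The 24 h means with vehicle and FGF6 were 1479 and 1010 CPM for P4hb and 2125 and 1762 CPM for Calr. For Hsp90b1, which went the other way, they were 1726 and 1880 CPM. Per kilobase of exon, averaged over the 6 groups, the order of levels ran from Calr (596 CPM per kb), P4hb (428), Hsp90b1 (370), Pdia3 (296) and Hspa5 (278) down to Eif2ak3 (6.55), Dnajb9 (6.48), Derl2 (6.16) and Derl3 (0.215). Abundant luminal chaperones thus stood above the sensors, of which Atf6 had 11, Ern1 7.16 and Eif2ak3 6.55 CPM per kb.

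The sensors moved in opposite directions. Ern1 and Atf6 were higher with FGF6 at every time, whereas Eif2ak3 and Xbp1 were lower. These are levels of mRNA, and gene counts tell neither sensor activity nor the spliced from the unspliced form of Xbp1.

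Ern1 (ENSMUSG00000020715, chr11:106394650-106487852) encodes IRE1, the kinase and endonuclease that splices Xbp1. Ern1 stood at 42.1, 45.7 and 44.3 CPM in the vehicle libraries and at 106, 114 and 109 CPM in the FGF6 libraries at 4 h. By 8 h it stood at 33.5, 34.6 and 34.5 CPM with vehicle and 80.0, 78.8 and 82.8 CPM with FGF6. After 24 h the values were 34.4, 33.7 and 28.3 CPM and 52.8, 49.4 and 49.9 CPM. Every FGF6 library lay above every vehicle library of its time, and both arms were highest at 4 h. The rise was 2.49-fold at 4 h (log2 1.31, SE 0.052, FDR = 3.18e-17), 2.35-fold at 8 h (log2 1.23, SE 0.053, FDR = 1.2e-16) and 1.57-fold at 24 h (log2 0.65, SE 0.055, FDR = 7.88e-11).

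Atf6 (ENSMUSG00000026663, chr1:170704674-170867771) encodes the sensor that is cut in the Golgi to release a transcription factor. Its vehicle libraries held 97.8, 99.6 and 96.3 CPM and its FGF6 libraries 137, 141 and 149 CPM at 4 h. The 8 h values were 77.8, 73.3 and 72.2 CPM with vehicle and 120.4, 111 and 114 CPM with FGF6. Those at 24 h were 74.4, 79.5 and 84.8 CPM and 102, 96.9 and 102 CPM. FGF6 libraries were again above vehicle libraries throughout, with the closest approach at 24 h. The log2 fold changes were 0.54 (SE 0.043, FDR = 5.13e-11) at 4 h, 0.63 (SE 0.044, FDR = 2.6e-12) at 8 h and 0.34 (SE 0.045, FDR = 2.19e-07) at 24 h.

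Eif2ak3 (ENSMUSG00000031668, chr6:70844515-70905245) encodes PERK, the kinase that phosphorylates the translation factor eIF2alpha. Eif2ak3 counted 44.1, 43.7 and 41.0 CPM with vehicle and 26.6, 27.7 and 27.3 CPM with FGF6 at 4 h. The corresponding values were 52.9, 51.2 and 49.5 CPM and 29.9, 29.5 and 29.2 CPM at 8 h. They were 46.2, 49.8 and 49.8 CPM and 37.8, 37.1 and 36.8 CPM at 24 h. No FGF6 library reached the lowest vehicle library of its time. Eif2ak3 fell by 0.66 on the log2 scale at 4 h (SE 0.046, FDR = 3.01e-12), by 0.79 at 8 h (SE 0.045, FDR = 2.61e-14) and by 0.38 at 24 h (SE 0.044, FDR = 1.88e-08). It shares 485 exonic bases with Gm43292 on the opposite strand, and the strand setting of the counting is not stated.

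Xbp1 (ENSMUSG00000020484, chr11:5520659-5525893) encodes the transcription factor made from the spliced mRNA. Xbp1 stood at 88.1, 86.5 and 97.3 CPM with vehicle and 83.7, 78.8 and 75.3 CPM with FGF6 at 4 h. Values at 8 h were 113, 110 and 99.3 CPM against 64.1, 57.0 and 57.0 CPM. The 24 h libraries gave 74.6, 74.6 and 74.7 CPM against 64.1, 63.5 and 67.8 CPM. The groups did not overlap at any time, and they were furthest apart at 8 h, when vehicle was at its highest and FGF6 at its lowest. The log2 fold changes were -0.19 (SE 0.054, FDR = 0.00314), -0.86 (SE 0.054, FDR = 3.24e-13) and -0.20 (SE 0.055, FDR = 0.00256) at 4, 8 and 24 h. Without FGF6 library 3 the 4 h value was -0.13 and no longer called (FDR = 0.0563).

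**Figure D4:**
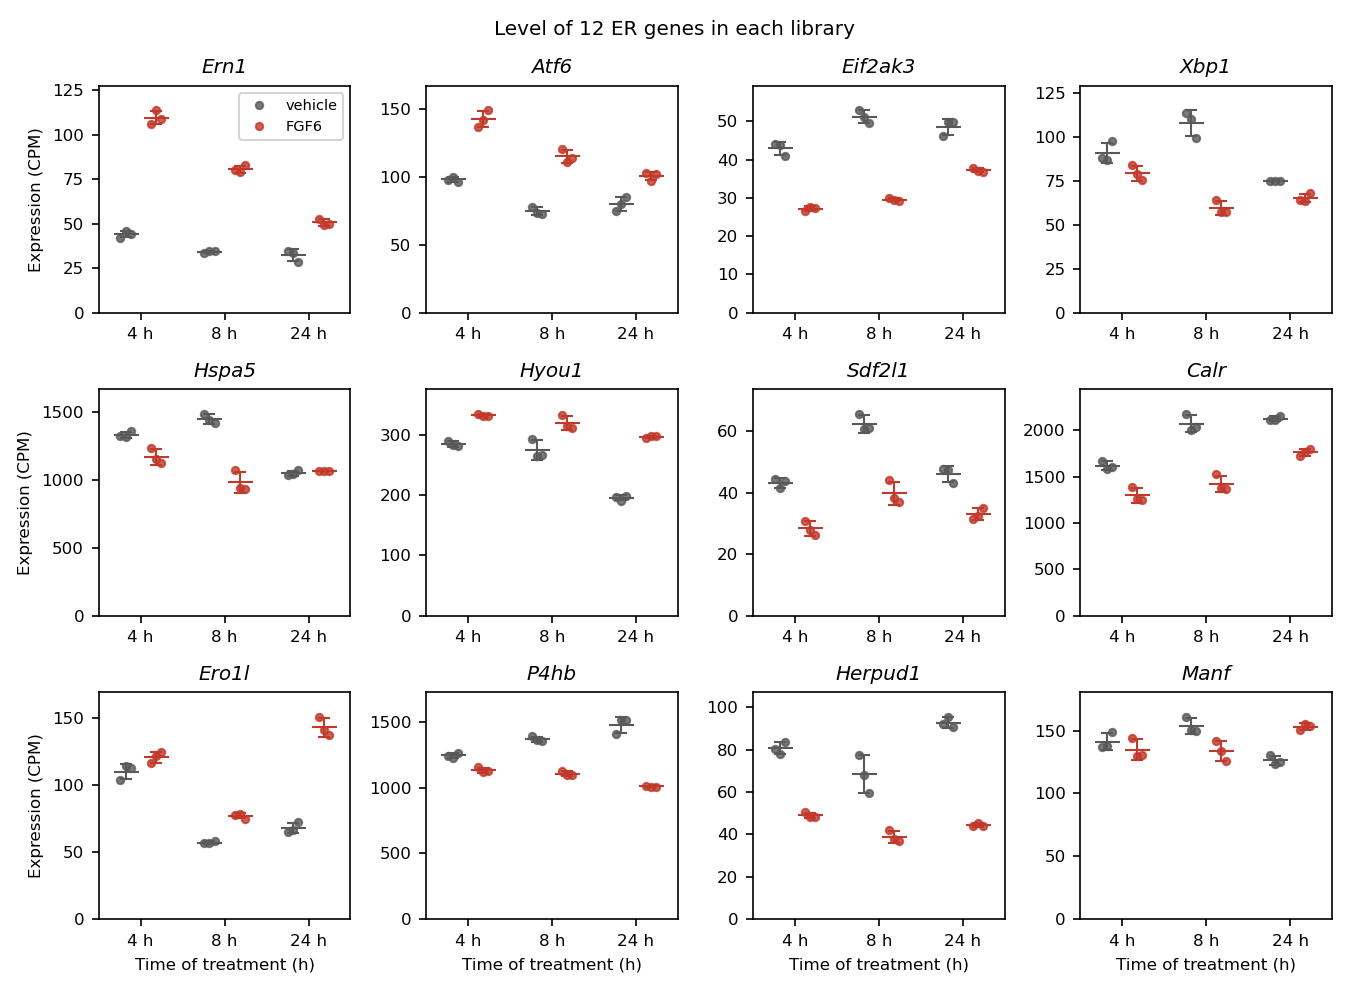
Level in CPM (vertical axis, from 0) of 12 of the ER genes in each library at 4, 8 and 24 h, with vehicle in grey and FGF6 in red, dots for the 3 libraries and bars for the mean ± SD. Ern1, Atf6, Hyou1 and Ero1l sit higher in FGF6, Eif2ak3, Xbp1, Sdf2l1, Calr, P4hb and Herpud1 sit lower, and the Hspa5 groups meet at 24 h.

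Of the 8 genes of the HSP70 and HSP90 system, 5 were lower and 2 higher at 4 h, 6 lower and 1 higher at 8 h, and 2 lower and 3 higher at 24 h. Of all genes tested, 34.2%, 38.4% and 37.9% were lower and 28.6%, 32.4% and 35.9% higher at these times, so the 24 h counts (25% lower and 37.5% higher) were not far from that share. Hspa5 (ENSMUSG00000026864, chr2:34771970-34777547) encodes BiP, the main HSP70 chaperone of the ER, which also holds the sensors inactive. Hspa5 was read at 1322, 1313 and 1357 CPM with vehicle and 1238, 1151 and 1124 CPM with FGF6 at 4 h. Levels at 8 h were 1488, 1437 and 1419 CPM and 1069, 941 and 934 CPM. Levels at 24 h were 1036, 1042 and 1070 CPM and 1065, 1068 and 1063 CPM. FGF6 libraries were below vehicle at 4 and 8 h and lay within the vehicle range at 24 h, where vehicle itself had dropped. The log2 fold changes were -0.18 (SE 0.039, FDR = 0.000215), -0.56 (SE 0.039, FDR = 2.18e-12) and 0.02 (SE 0.039, FDR = 0.632).

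Hyou1 (ENSMUSG00000032115, chr9:44379490-44392369) encodes a large HSP70-like protein that exchanges the nucleotide of BiP. Hyou1 ran against its partner, with 289.7, 284 and 281 CPM in vehicle and 335, 332 and 330.3 CPM in FGF6 libraries at 4 h. It had 293, 264 and 266 CPM and 333, 314 and 312 CPM at 8 h. It had 197, 190.5 and 198 CPM and 295, 298 and 297 CPM at 24 h. All FGF6 libraries were above all vehicle libraries of the same time, and the vehicle level was lowest at 24 h. Hyou1 was 1.52-fold higher at 24 h (log2 0.60, SE 0.036, FDR = 8.7e-14) and 1.17-fold higher at 4 h (log2 0.22, SE 0.036, FDR = 6.6e-06). The 8 h value was 1.16-fold (log2 0.22, SE 0.036, FDR = 6.45e-06).

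Sdf2l1 (ENSMUSG00000022769, chr16:17130138-17132383) encodes a partner of the BiP cochaperone Dnajb11. Sdf2l1 counted 44.4, 41.3 and 43.8 CPM with vehicle and 30.9, 27.9 and 26.2 CPM with FGF6 at 4 h. At 8 h it counted 65.7, 60.5 and 60.8 CPM and 44.0, 38.2 and 37.1 CPM. At 24 h it counted 47.7, 47.2 and 43.0 CPM and 31.5, 32.5 and 35.0 CPM. Vehicle libraries were higher than FGF6 libraries at each time, and both arms peaked at 8 h. Sdf2l1 fell by 0.61 (SE 0.066, FDR = 1.32e-08), 0.65 (SE 0.062, FDR = 1.01e-09) and 0.48 (SE 0.065, FDR = 3.19e-07) on the log2 scale at 4, 8 and 24 h.

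Among the other genes of this system, Hsp90b1, which encodes the ER HSP90 protein GRP94, had log2 fold changes of -0.24, -0.45 and 0.12 at 4, 8 and 24 h, all called. Part of its exons is shared with other genes, 217 bases on the same strand and 415 on the opposite strand. The BiP cochaperones differed among themselves. Dnajc3 was lower at all 3 times (-0.36, -0.50 and -0.27). Dnajc10, which also reduces disulfide bonds, was lower at 4 and 8 h (-0.26 and -0.31) and higher at 24 h (0.20). Dnajb9 was higher at 4 h (0.23), a call lost under total-count scaling (0.13, FDR = 0.155), without FGF6 library 1 (0.18, FDR = 0.0716) and without vehicle library 1 (0.17, FDR = 0.0941), with uncalled values of -0.14 and -0.13 later. Dnajb11 was called at 8 h alone (-0.17, FDR = 7.48e-05).

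The lectin chaperones Calr and Canx, which hold newly glycosylated proteins, differed in size of response. Calr (ENSMUSG00000003814, chr8:84841850-84846934) encodes calreticulin and had 1669, 1582 and 1608 CPM with vehicle and 1391, 1255 and 1248 CPM with FGF6 at 4 h. Calr had 2181, 2006 and 2032 CPM and 1527, 1374 and 1366 CPM at 8 h. Calr had 2108, 2113 and 2153 CPM and 1720, 1762 and 1803 CPM at 24 h. Each FGF6 group lay wholly below its vehicle group. Calr was 1.25-fold lower at 4 h (log2 -0.32, SE 0.041, FDR = 2e-07), 1.46-fold lower at 8 h (log2 -0.54, SE 0.041, FDR = 9.19e-12) and 1.21-fold lower at 24 h (log2 -0.27, SE 0.041, FDR = 1.71e-06).

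Canx (ENSMUSG00000020368, chr11:50293961-50325673) encodes the membrane lectin calnexin. Canx had 599.5, 617 and 637 CPM with vehicle and 575, 585 and 588 CPM with FGF6 at 4 h. At 8 h Canx had 647, 623 and 632 CPM and 630.2, 605 and 603 CPM. At 24 h Canx had 636, 661 and 682 CPM and 720.1, 704 and 689 CPM. The groups were close at all times, overlapping at 8 h. Its log2 fold changes were -0.08 (SE 0.031, FDR = 0.0216), -0.05 (SE 0.031, FDR = 0.162) and 0.09 (SE 0.031, FDR = 0.00915), and the 4 h call was lost with DESeq2 (-0.06, FDR = 0.0794) and without any 1 of the FGF6 libraries (-0.05 to -0.07) or vehicle library 3 (-0.06, FDR = 0.12).

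Of the 5 disulfide enzymes, all 4 isomerases were lower at 4 and 8 h, beside 34.2% and 38.4% of all genes. The oxidase Ero1l was higher at 4, 8 and 24 h, when 28.6%, 32.4% and 35.9% of all genes were higher. P4hb (ENSMUSG00000025130, chr11:120560298-120573253) encodes protein disulfide isomerase, which is also the beta subunit of collagen prolyl 4-hydroxylase. P4hb had 1244, 1230 and 1266 CPM in vehicle and 1157, 1119 and 1126 CPM in FGF6 libraries at 4 h. P4hb had 1392, 1361 and 1354 CPM and 1129, 1097 and 1094 CPM at 8 h. P4hb had 1407, 1513 and 1516 CPM and 1017, 1005 and 1006 CPM at 24 h. Vehicle was above FGF6 without overlap, and the distance was largest at 24 h. The log2 fold changes were -0.14 (SE 0.027, FDR = 0.000114), -0.31 (SE 0.027, FDR = 2.56e-10) and -0.55 (SE 0.027, FDR = 1.74e-15) at 4, 8 and 24 h.

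Ero1l (ENSMUSG00000021831, chr14:45283087-45318771) encodes the oxidase that recharges protein disulfide isomerase and is known to respond to low oxygen as well as to ER stress. Ero1l had 104, 114 and 113 CPM with vehicle and 116, 122 and 125 CPM with FGF6 at 4 h. The next time gave 56.5, 56.5 and 58.2 CPM and 78.0, 78.3 and 75.1 CPM. The last gave 65.1, 66.6 and 72.3 CPM and 151, 141 and 137 CPM. FGF6 libraries were above vehicle libraries each time, narrowly at 4 h and by the widest margin at 24 h. The rise was 2.11-fold at 24 h (log2 1.08, SE 0.044, FDR = 3.22e-17) and 1.35-fold at 8 h (log2 0.44, SE 0.046, FDR = 5.07e-09). At 4 h it was 1.1-fold (log2 0.13, SE 0.043, FDR = 0.0088), and that call was lost under total-count scaling (log2 0.03, FDR = 0.492) and without vehicle library 1 (0.09, FDR = 0.0788).

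Pdia3, Pdia4 and Pdia6, the other isomerases, were lower at 8 h with log2 fold changes of -0.27, -0.50 and -0.27 and were not called at 24 h (-0.04, 0.05 and -0.05). Their 4 h values of -0.17, -0.28 and -0.13 were all called lower. The 4 h call of Pdia6 was lost without FGF6 library 2 (-0.10, FDR = 0.0502) or 3 (-0.08, FDR = 0.0945). At 24 h Pdia4 was called higher without FGF6 library 1 (0.09, FDR = 0.044) or 3 (0.09, FDR = 0.0412) and without vehicle library 2 (0.10, FDR = 0.0155) or 3 (0.09, FDR = 0.0356).

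The secreted ER stress proteins Manf and Creld2 changed direction between 8 and 24 h. Manf (ENSMUSG00000032575, chr9:106838312-106891979) encodes a neurotrophic factor that leaves stressed cells. Manf had 137, 138 and 149 CPM with vehicle and 144, 129.5 and 130.3 CPM with FGF6 at 4 h, 161, 150.2 and 150.1 and 142, 134 and 126 CPM at 8 h, and 131, 124 and 125 and 150.5, 156 and 154 CPM at 24 h. Groups overlapped at 4 h, FGF6 was below vehicle at 8 h and above it at 24 h. Its log2 fold changes were -0.07 (FDR = 0.205), -0.20 (SE 0.046, FDR = 0.000409) and 0.28 (SE 0.046, FDR = 7.71e-06). The 4 h value was called lower with total-count scaling (-0.17, FDR = 0.00289) and upper-quartile scaling (-0.12, FDR = 0.0209). Exons of Manf share 312 bases with genes on the opposite strand.

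Creld2 (ENSMUSG00000023272, chr15:88819646-88826683) encodes a cysteine-rich ER protein. Creld2 had 109.8, 105 and 113 CPM with vehicle and 116, 104 and 101 CPM with FGF6 at 4 h, 119, 112 and 114 and 109, 104 and 97.5 CPM at 8 h, and 82.4, 79.0 and 77.1 and 85.9, 90.1 and 92.6 CPM at 24 h. The order of the groups was that of Manf, with smaller gaps. Its log2 fold changes were -0.03 (FDR = 0.561), -0.15 (SE 0.048, FDR = 0.00557) and 0.17 (SE 0.049, FDR = 0.00314), and the 8 h call was lost without FGF6 library 3 (-0.07, FDR = 0.218).

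Calls among the 9 ERAD genes ran in 1 direction, with 6 lower at 4 h, 8 at 8 h and 8 at 24 h, beside 34.2%, 38.4% and 37.9% of all genes tested. By edgeR over all libraries, limma and DESeq2, 0 were higher, beside 28.6%, 32.4% and 35.9% of all genes. At an unadjusted p below 0.05 only Derl3 was higher, at 4 h, and it was called at that time when the 4 h libraries were fitted alone (0.87, FDR = 0.0452). Herpud1 (ENSMUSG00000031770, chr8:94386438-94395377) encodes HERP, a membrane protein that assembles the ERAD complex. Herpud1 had 80.3, 78.0 and 83.7 CPM with vehicle and 50.4, 48.2 and 48.1 CPM with FGF6 at 4 h. Its 8 h levels were 77.5, 68.2 and 59.6 CPM and 42.0, 37.9 and 36.7 CPM. Its 24 h levels were 91.9, 95.5 and 90.7 CPM and 43.8, 45.5 and 44.0 CPM. FGF6 libraries were below vehicle at all times, and the 8 h vehicle libraries were the most scattered. Herpud1 was 1.65-fold lower at 4 h (log2 -0.72, SE 0.063, FDR = 2.81e-10), 1.76-fold lower at 8 h (log2 -0.81, SE 0.065, FDR = 2.98e-11) and 2.09-fold lower at 24 h (log2 -1.06, SE 0.064, FDR = 7.87e-14).

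Sel1l and Syvn1, the adaptor and the ubiquitin ligase of the core ERAD complex, were lower at each time. Sel1l had log2 fold changes of -0.40, -0.72 and -0.61. Syvn1 had -0.19, -0.42 and -0.34. Edem1 and Edem2, which help trim mannose from misfolded glycoproteins, fell at all times as well, Edem1 most at 8 h (-0.42) and Edem2 most at 24 h (-0.66). Of the derlins, which form part of the exit channel, Derl1 was lower by at most 0.23 on the log2 scale and its 4 h call was lost with DESeq2 (-0.07, FDR = 0.0839), without FGF6 library 1 (-0.07, FDR = 0.115) or 2 (-0.04, FDR = 0.344) and without vehicle library 3 (-0.07, FDR = 0.112). Derl2 was lower at 8 and 24 h (-0.11 and -0.22), the 8 h call being lost with DESeq2 (-0.08, FDR = 0.135) and without FGF6 library 2 (-0.10, FDR = 0.0574) or 3 (-0.06, FDR = 0.253), and Selenos, a selenoprotein of the same complex, was lower at 8 and 24 h (-0.37 and -0.50).

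Derl3 (ENSMUSG00000009092, chr10:75893413-75895941) was barely read. Its libraries held 0.324, 0.556 and 0.434 CPM with vehicle and 0.481, 0.765 and 1.14 CPM with FGF6 at 4 h, 0.505, 0.254 and 0.308 and 0.553, 0.504 and 0.411 CPM at 8 h, and 0.280, 0.362 and 0.294 and 0.365, 0.0357 and 0.147 CPM at 24 h, where 3 counts are worth 0.0905 to 0.126 CPM. The groups overlapped at each time. Its log2 fold changes were 0.83 (SE 0.39, FDR = 0.0651), 0.46 (SE 0.43, FDR = 0.348) and -0.78 (SE 0.55, FDR = 0.206), so no difference was called in the fit over all libraries. Fitted with the 4 h libraries alone it was called higher (0.87, FDR = 0.0452). Without FGF6 library 1 of the time, Derl3 was called higher at 4 h (1.11, FDR = 0.0229) and lower at 24 h (-1.71, FDR = 0.0258).

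The translocon genes moved little. Sec61a1 (ENSMUSG00000030082, chr6:88503579-88518905) encodes the channel itself and had 426, 422 and 412 CPM with vehicle and 449, 459 and 457 CPM with FGF6 at 4 h, 465, 466 and 438 and 476, 469 and 467 CPM at 8 h, and 372, 377 and 385 and 371, 370.1 and 373 CPM at 24 h. FGF6 was above vehicle at 4 and 8 h and overlapped it at 24 h. Sec61a1 was called at 4 h (log2 0.12, SE 0.029, FDR = 0.0012), a call lost under total-count scaling (0.02, FDR = 0.664), and not at 8 h (0.05, FDR = 0.17) or 24 h (-0.03, FDR = 0.438). The 8 h value was called higher by DESeq2 (0.08, FDR = 0.00517), with the 8 h libraries fitted alone (0.08, FDR = 0.0251) and without FGF6 library 3 (0.09, FDR = 0.0163), and was -0.02 with total-count scaling. It shares 549 exonic bases with Gm44170 on the opposite strand.

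Sec61b (ENSMUSG00000053317, chr4:47474658-47483242) encodes a small subunit of the channel. Sec61b had 32, 32.4 and 34.4 CPM with vehicle and 32.5, 29.1 and 29.5 CPM with FGF6 at 4 h, 39.2, 36.7 and 38.6 and 38.2, 37.4 and 35.0 CPM at 8 h, and 43.4, 42.8 and 40.0 and 40.6, 43.2 and 41.8 CPM at 24 h. The groups overlapped at all times. Its log2 fold changes were -0.12 (FDR = 0.0573), -0.05 (FDR = 0.4) and -0.01 (FDR = 0.886), and the 4 h value was called under total-count scaling (-0.22, FDR = 0.00123), upper-quartile scaling (-0.17, FDR = 0.00617) and without FGF6 library 1 (-0.14, FDR = 0.0297) or vehicle library 1 (-0.14, FDR = 0.0495).

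The effect of FGF6 on these genes changed with time. From 4 to 8 h it became lower in 14 and higher in 1 of the 32 genes, where 15.1% and 15.5% of all genes did so, with a median difference of -0.13. From 8 to 24 h it became higher in 17 and lower in 5, beside 22.6% and 22.5% of all genes, with a median difference of 0.17. Between 4 and 24 h it was higher in 11 and lower in 12, beside 28.3% and 25.2% of all genes. These comparisons share the FGF6 and vehicle libraries of the time in common.

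Xbp1 and Hspa5 showed both turns, as did Calr, Hsp90b1, Pdia4, Pdia6, Dnajc3, Dnajb11 and Edem1, with the first turn of Pdia6 barely called (FDR = 0.0495). Both turns rest on the same 8 h libraries, so they are not independent of each other. The share of all genes with both turns is not given here. The log2 fold change of Xbp1 was lower by 0.66 at 8 h than at 4 h (SE 0.076, FDR = 3.01e-07) and higher by 0.66 at 24 h than at 8 h (SE 0.077, FDR = 1.28e-07). That of Hspa5 dropped by 0.38 (SE 0.055, FDR = 9.75e-06) and then rose by 0.58 (SE 0.055, FDR = 3.63e-09). Between 8 and 24 h the effect became higher in 6 of the 8 genes of the HSP70 and HSP90 system, beside 22.6% of all genes. Among the 6 were Hsp90b1 (0.57, SE 0.05, FDR = 9.07e-10) and Dnajc10 (0.51, SE 0.047, FDR = 2.22e-09). The effect on Pdia4 became higher by 0.55 (SE 0.047, FDR = 6.28e-10). These are changes of the effect, not of the level. With FGF6 the levels of Hyou1, Dnajc3 and Dnajb11, also among the 6, fell over this interval (-0.11, -0.10 and -0.16). Their vehicle levels fell more (-0.49, -0.33 and -0.33). With FGF6 the levels of Hspa5, Dnajc10 and Hsp90b1 rose (0.12, 0.57 and 0.65). The effects on Ero1l and P4hb moved further from 0 at both steps. That on Ero1l became higher by 0.30 (SE 0.063, FDR = 0.000616) and then by 0.64 (SE 0.064, FDR = 7.65e-09). From 8 to 24 h the effect became lower for Ern1 (-0.58, SE 0.077, FDR = 8.02e-07) and Edem2 (-0.30, SE 0.067, FDR = 0.000563). It also became lower for Atf6 (-0.29, SE 0.063, FDR = 0.000468) and Herpud1 (-0.25, SE 0.091, FDR = 0.0296). For P4hb it became lower too (-0.24, SE 0.039, FDR = 1.24e-05). The effect on P4hb was already lower by 0.17 at 8 h than at 4 h (SE 0.039, FDR = 0.00142). The level of Herpud1 itself rose from 8 to 24 h, by 0.19 with FGF6 and by 0.44 with vehicle. The Herpud1 difference was not called with total-count scaling (-0.19, FDR = 0.0932) or without vehicle library 3 of 8 h (-0.16, FDR = 0.103).

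Levels also moved over time in the vehicle cells. From 4 to 8 h, 23 of the 32 genes rose with vehicle and 4 fell, where 21.2% and 21.7% of all genes did. Over the same hours with FGF6, 9 rose and 8 fell, beside 24.1% and 24% of all genes. Vehicle Calr rose by 0.36 on the log2 scale (SE 0.041, FDR = 9.42e-08) and vehicle Sdf2l1 by 0.53 (SE 0.061, FDR = 1.06e-07), while vehicle Ero1l fell by 0.95 (SE 0.045, FDR = 1.37e-14). From 8 to 24 h, 9 genes rose and 12 fell with vehicle (25.5% and 23.7% of all genes), whereas 16 rose and 12 fell with FGF6 (31.1% and 31.2%). Vehicle Hspa5 dropped from 1448 ± 35.5 to 1049 ± 17.8 CPM between 8 and 24 h, a log2 change of -0.46 (SE 0.039, FDR = 4.55e-10), as FGF6 Hspa5 went from 981 ± 75.9 to 1065 ± 2.14 CPM.

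ER genes with and without ERSE were set side by side, without a test between them. Of the 9 ER genes with the element, 7 were lower at 4 h, 7 at 8 h and 3 at 24 h, while 0, 0 and 3 were higher, with median log2 fold changes of -0.18, -0.42 and -0.05. Of all genes tested, 34.2%, 38.4% and 37.9% were lower and 28.6%, 32.4% and 35.9% higher, so at 24 h the genes with ERSE (33.3% each way) were near the share of all genes. The 0 at 4 and 8 h was that of edgeR over all libraries, limma and DESeq2. Derl3 was higher at 4 h at an unadjusted p below 0.05, and it was called with the 4 h libraries alone (0.87, FDR = 0.0452) and without FGF6 library 1 (1.11, FDR = 0.0229). The 18 with a window and no ERSE included Dnajb11 and Herpud1, which held ERSE-II. Of these 18, 11 were lower and 3 higher at 4 h, 14 and 2 at 8 h, and 10 and 3 at 24 h. Their medians were -0.18, -0.33 and -0.21. The 2 ERSE-II genes stood apart from each other, Herpud1 being lower throughout and Dnajb11 called at 8 h alone. Outside the list, 9 tested genes held ERSE, of which 4, 5 and 5 were lower and 2, 2 and 1 higher at 4, 8 and 24 h. Calr4 had the largest changes of these 9, being higher at all 3 times (log2 2.25, 5.29 and 4.73), and its level is not given here.

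The other arms of the response were described with gene lists outside the 32, whose counts stand beside 34.2%, 38.4% and 37.9% of all genes lower and 28.6%, 32.4% and 35.9% higher at 4, 8 and 24 h. These shares are those of the main results, and list counts under other scalings have no share of all genes beside them. Of 15 genes of the PERK and ATF4 arm, 8 were lower and 3 higher at 4 h, 9 and 3 at 8 h, and 7 and 3 at 24 h, with medians of -0.33, -0.61 and -0.08, and at 4 h total-count scaling gave 10 lower and 2 higher. Eif2s1, which encodes eIF2alpha, the target of PERK, rose from 94.4 ± 3.15 to 180.5 ± 1.78 CPM at 24 h (log2 0.94, SE 0.035, FDR = 5.01e-18). Bbc3, which encodes the death protein PUMA, was 8.23 ± 0.476 CPM with FGF6 and 25.9 ± 2.45 CPM with vehicle at 24 h (log2 -1.66, SE 0.094, FDR = 2.33e-14). Atf3, a stress-induced transcription factor, was lower by 1.42 on the log2 scale at 8 h (SE 0.17, FDR = 7.49e-08). Of 13 tested genes for other ER stress transcription factors and their processing, 6 were lower at each time and 6, 5 and 5 were higher. The medians of this list were -0.08, -0.04 and -0.05. Mbtps2 rose from 52.1 ± 2.61 to 87.7 ± 3.85 CPM at 24 h (log2 0.75, SE 0.046, FDR = 1.44e-13). Creb3l1, an ER-anchored transcription factor that controls collagen secretion, went from 43.4 ± 0.792 to 10.4 ± 0.415 CPM at 24 h (log2 -2.06, SE 0.062, FDR = 5.56e-20).

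Other folding enzymes of the ER, 33 of them tested, were lower in 54.5%, 69.7% and 69.7% at 4, 8 and 24 h, beside 34.2%, 38.4% and 37.9% of all genes. Lower genes numbered 18, 23 and 23 and higher genes 3, 4 and 6 (28.6%, 32.4% and 35.9% of all genes were higher), with medians of -0.19, -0.25 and -0.33, and total-count scaling gave 25 lower and 1 higher at 4 h. Serpinh1, the collagen chaperone HSP47, fell from 1770 ± 43.3 to 678 ± 24 CPM at 24 h (log2 -1.38, SE 0.03, FDR = 5.79e-23). Uggt2, a glycoprotein folding sensor, was higher by 0.81 at that time (SE 0.052, FDR = 3.08e-13). Among 30 other ERAD genes, 13, 14 and 16 were lower and 7, 11 and 11 higher (43.3%, 46.7% and 53.3% lower and 23.3%, 36.7% and 36.7% higher, near the shares of all genes for higher), with medians of -0.06, -0.11 and -0.13, and total-count scaling gave 20 lower and 5 higher at 4 h and 16 and 7 at 8 h, while upper-quartile scaling gave 17 and 5, and 16 and 7. The ERAD lectin Os9 was lower at 24 h (log2 -0.91, SE 0.037, FDR = 2.12e-17), and Svip, which encodes an inhibitor of ERAD, was higher (log2 1.08, SE 0.081, FDR = 5.77e-12).

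For 37 tested genes of translocation, signal peptide removal and glycosylation the direction depended on the scaling. They split into 12 higher and 9 lower at 4 h, 8 and 14 at 8 h, and 13 and 12 at 24 h, with medians of 0.01, -0.01 and 0.02. At 4 h total-count scaling gave 4 higher and 18 lower, upper-quartile scaling 6 and 15, and DESeq2 15 and 6. At 8 h these were 4 and 19, 6 and 17, and 10 and 11. A list of 25 heat shock genes of the cytosol and mitochondria had more higher than lower calls, with 12, 16 and 16 higher and 6, 6 and 7 lower and medians of 0.16, 0.35 and 0.57 (48%, 64% and 64% higher, beside 28.6%, 32.4% and 35.9% of all genes), though at 4 h total-count scaling gave 10 higher and 8 lower. Hspd1, the mitochondrial chaperonin, rose from 188.9 ± 6.27 to 444 ± 17.6 CPM at 24 h (log2 1.23, SE 0.035, FDR = 1.29e-20). Cryab, a small heat shock protein, went from 29.8 ± 1.44 to 1.64 ± 0.436 CPM (log2 -4.18, SE 0.11, FDR = 3.8e-21).

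Marker levels also differed between FGF6 and vehicle libraries. Summed over 9 preadipocyte and stromal markers, among which Dlk1 was at 0 in all 18 libraries, levels ran from 3370 to 3610 CPM with vehicle and from 2110 to 2240 CPM with FGF6 at 4 h. The ranges were 4680 to 4970 and 2350 to 2550 CPM at 8 h, and 4420 to 4730 and 840 to 899 CPM at 24 h. Col1a1, the collagen gene that carries much of the sum, ranged from 418 to 3620 CPM over the libraries. The 6 mature adipocyte markers summed to at most 6.45 CPM, the 4 muscle markers to 8.33, the 5 immune markers to 16.7, almost all of it Cd68, the 3 endothelial markers to 5.65 and the 3 epithelial markers to 2.35, with Lep, Cd3e and Myf5 at 0 and Ptprc at most 0.074 CPM. The part of the stromal markers in the ER gene results was not tested, and in bulk RNA fewer cells of a type and less RNA per cell cannot be told apart. Total counts ran from 24327816 to 33471980 per library, normalization factors from 0.951 in FGF6 libraries at 4 h to 1.05 in vehicle libraries at 8 h, and all 18 libraries correlated best with their own group.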

How the data were processed

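RNA-seq gene counts of 18 libraries were used. The authors deposited raw counts per gene, made by alignment with STAR to GRCm38 and counting with Subread featureCounts; the versions of these tools and the strand setting are not given in the sources used here. Of the 48023 gene identifiers, 98.5% were found in GENCODE M21, which gave the symbols. Counts were filtered with filterByExpr, scaled with TMM factors and fitted in edgeR 4.0.16 (R 4.3.3) as 1 model over the 6 groups, with Benjamini-Hochberg adjustment over 15071 genes and calls at an FDR under 0.05. Interaction contrasts compared the FGF6 effect between times. The fitting code was tested on simulated data. Libraries held 24327816 to 33471980 counts, the common biological coefficient of variation was 0.0458, and 3 counts were worth 0.0905 to 0.126 CPM. The alternatives tried were limma 3.58.1 with voom, DESeq2 1.42.0, other scalings, filters and thresholds, fewer libraries and a replicate block. Per-library values are given for the 2 genes of each role group with the largest change at any time and for Xbp1, Atf6, Ern1, Eif2ak3 and Hspa5; from each outside list at most 2 rising and 2 falling called genes were named. The genes and lists were chosen with earlier results of these data known. Promoter sequences and motif positions come from RefSeq windows on GRCm38.p6, which held no entry for Hyou1, Manf, Atf6, Derl1 and Sec61a1.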

Additional observations from a re-analysis of the deposited data

Results flagged for a closer look

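The effect of FGF6 against vehicle differed between times in 13 of the genes whose libraries were given above, by edgeR's quasi-likelihood test of the difference itself. Between 4 and 8 h the log2 fold change of Xbp1 changed by -0.66, that of Hspa5 by -0.38, that of Calr by -0.22, that of P4hb by -0.17 and that of Ero1l by 0.30. Between 8 and 24 h it changed by 0.66 for Xbp1, 0.58 for Hspa5, 0.27 for Calr and 0.14 for Canx, all of them chaperones or their regulator. Over that interval it changed by 0.64 for Ero1l, 0.48 for Manf, 0.41 for the sensor Eif2ak3, 0.38 for Hyou1 and 0.33 for Creld2. The log2 fold changes of Ern1 (-0.58), Atf6 (-0.29), Herpud1 (-0.25) and P4hb (-0.24) went down between 8 and 24 h. The Herpud1 difference was not called with total-count scaling (-0.19, FDR = 0.0932), and without single libraries it was as small as -0.158 (FDR = 0.103, without vehicle library 3 of 8 h). The other 17 differences were called under every alternative that was run for them, apart from the fold threshold. At 1.2-fold the differences of Calr and P4hb between 4 and 8 h were not called. Nor were those of Canx, P4hb and Herpud1 between 8 and 24 h.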

How the results depend on the processing

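Of the 96 log2 fold changes (32 genes at 3 times), 75 were called. Under alternatives other than the thresholds on FDR and fold, 27 changed their call or sign at least once. At 1.2-fold, 23, 11 and 17 of the 32 genes were not called at 4, 8 and 24 h, against 7, 5 and 9 without that threshold. Away from these thresholds and from single libraries left out, 721 of the alternative values kept call and sign. Another 17 lost the call, 18 gained it and 8 changed sign. Those 8 were uncalled values near 0, namely Dnajb11 at 4 h (0.00113) and Creld2 at 4 h (0.00255) with only the libraries of the time, Dnajb11 at 24 h with total-count scaling (-0.0032), upper-quartile scaling (-0.0101), no filter (-0.00376) and at least 10 counts in every library (-0.00934), Sec61a1 at 8 h with total-count scaling (-0.0185), and Sec61b at 24 h with DESeq2 (0.0105). Derl3 was left out by the filter at 10 counts. With 1 library left out at a time, sign changed in uncalled values of Canx at 8 h (-0.0691 to 0.00503), Pdia3 (-0.0354 to 0.025), Pdia6 (-0.0508 to 0.0199) and Sec61a1 (-0.0212 to 0.0279) at 24 h, Dnajb11 (-0.0499 to 0.00677) and Creld2 (-0.0738 to 0.0311) at 4 h, and Sec61b at 8 h (-0.076 to 0.0291) and 24 h (-0.0297 to 0.0569). The cause was not tested.

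At 4 h, genes higher numbered 3 with total-count scaling, 3 with upper-quartile scaling and 2 at 1.2-fold, and genes lower numbered 7 at 1.2-fold. The median log2 fold change was -0.237 and -0.192 with these scalings at 4 h. At 8 h it was -0.355 with total-count scaling, -0.336 with upper-quartile scaling, -0.253 with DESeq2 and -0.257 with only the libraries of the time. At 24 h it was -0.0713 with DESeq2, -0.0589 with at least 10 counts in every library and -0.0481 with only the libraries of the time, and 5 genes were higher at 1.2-fold. At 1.2-fold the effect differed in 6 genes from 4 to 8 h, in 14 from 8 to 24 h and in 14 from 4 to 24 h. Of all genes it differed in 20.3%, 34% and 42.5%. Changes over time at 1.2-fold numbered 9 and 12 with vehicle (23% and 29.2% of all genes) and 7 and 14 with FGF6 (28.5% and 44.8%). At an FDR under 0.25 FGF6 gave 26 between 4 and 8 h, for which the share of all genes is not given here.

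Leaving out 1 library gave 4 to 6 higher and 16 to 20 lower genes at 4 h (median -0.146 to -0.1), 4 to 5 and 21 to 23 at 8 h (-0.303 to -0.238), and 9 to 10 and 14 to 15 at 24 h (-0.0877 to -0.00826). The 24 h median was -0.00826 without vehicle library 3, -0.0406 without FGF6 library 1 and -0.0538 without FGF6 library 3. The effect differed between times in 10 to 17, 21 to 23 and 19 to 24 genes, and levels changed over time in 22 to 27 and 20 to 22 genes with vehicle and 12 to 18 and 24 to 28 with FGF6. Same-numbered libraries shared only a number (correlations of -0.0275 to 0.0486). With the number as a replicate block, 6 genes were higher and 19 lower at 4 h, 4 and 23 at 8 h, and 9 and 14 at 24 h, and no call of FGF6 against vehicle changed among the 32 genes. The effect then differed between 4 and 24 h in 22 genes, against 23 without the block. Total-count scaling moved the median of all genes from -0.0502 to -0.114 at 8 h.

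For the outside lists, the alternatives were added after the data had been seen. At 1.2-fold, 26%, 31.4% and 32.3% of all genes were lower and 19.5%, 24.6% and 28.7% higher at 4, 8 and 24 h. The shares of all genes under the other scalings and at an FDR under 0.25 are not given here. At 1.2-fold the PERK and ATF4 list had 1 higher gene at 8 h. The other transcription factors had 2 lower at 4 h and 3 higher at 24 h. The other folding enzymes had 1 higher and 8 lower at 4 h and 2 higher at 8 h. The other ERAD genes had 4 lower at 4 h and 5 and 6 higher at 8 and 24 h. The translocation and glycosylation genes had 2 higher and 0 lower at 4 h, 4 higher and 3 lower at 8 h and 3 higher at 24 h. At an FDR under 0.25 the PERK and ATF4 list had 5 higher at 24 h and the folding enzymes 6 at 4 h, a count also 6 with at least 10 counts in every library and with only the libraries of the time. Total-count scaling left 1 and 2 folding enzymes higher at 4 and 8 h, 20 other ERAD genes lower at 4 h and 7 higher at 8 h, and 4 translocation and glycosylation genes higher and 18 lower at 4 h and 4 higher at 8 h. Upper-quartile scaling left 7 other ERAD genes higher at 8 h and 6 translocation and glycosylation genes higher and 15 lower at 4 h. Ssr2 at 4 h, 0.01 and not called, was -0.0902 with total-count and -0.0457 with upper-quartile scaling. Without 1 library, the PERK and ATF4 list had 3 to 5 higher at 24 h, the folding enzymes 3 to 5 higher at 4 h and the translocation and glycosylation genes 9 to 14 lower at 8 h. The number of libraries and the low level of Derl3 limit what could be seen.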
